A study of Mus musculus with 8 samples.

Results

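The response of CD8+ T cells to 5 days of culture was measured in the libraries labelled KO, by comparing the 2 libraries of day 5 (replicates 1 and 2) with the 2 libraries of day 0 (replicates 1 and 2). These were 4 of the 8 RNA-sequencing libraries of the study and were chosen by their labels for genotype and day. The other 4 libraries, labelled WT at the same days, shared the estimate of the spread and were used to ask where the response differed from that of WT. All 8 came from sorted peripheral CD8+ T cells of the spleen of C57BL/6 mice. The KO group combines floxed Satb1 alleles (Satb1 F/F) with E8I-cre, a recombinase transgene under a Cd8a enhancer that acts in mature cells of the CD8 lineage. By this design the deletion is meant to come after thymic selection. Whether the WT mice carried either allele is not given. The labels also do not give the age of the mice, the number of mice, whether replicates were separate mice or cultures, or what the day 5 cells received beyond in vitro culture, which the title of the series calls stimulated. Day 0 and day 5 therefore differ in culture, time and stimulation together, and p-values measure only the spread between these libraries, which may be technical.

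A resting CD8+ T cell circulates between blood and lymphoid organs in a quiescent state, kept by interleukin-7 signalling and by transcription factors such as TCF-1, LEF-1 and KLF2. When its antigen receptor and costimulatory receptors are engaged, it grows, turns to glycolysis, divides repeatedly and becomes an effector cell that stores perforin and granzymes and displays inhibitory receptors. SATB1, the protein targeted here, binds AT-rich DNA and organises chromatin in T cells.

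Counts assigned to genes totalled 11117971 and 5120244 in the day 0 libraries and 5843985 and 5654813 in the day 5 libraries. Of 48321 gene symbols, 12597 passed the filter on low counts and were tested with edgeR's quasi-likelihood test, with adjustment by Benjamini-Hochberg (FDR), and genes under an FDR of 0.05 are called higher or lower at day 5. Levels are given as CPM, the counts of a gene relative to the scaled size of its library, so every change is relative to the rest of the library and not per cell. Day 0 replicate 2 listed 26002 genes with a count, against 22489 in the deeper replicate 1, and the day 5 libraries listed 17040 and 20127. In both groups the counts of the pair varied beyond sampling noise. That does not tell separate samples from separate preparations of 1 sample, and the libraries were counted as separate because the labels list them so. The Pearson correlation of log2 CPM across genes was 0.975 between the day 0 replicates and 0.980 between the day 5 replicates, and from 0.795 to 0.806 between days.

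Satb1 itself (chr17:51736187-51833290, minus strand, GRCm38) was read out at 144 and 125 CPM at day 0 and 56.5 and 62.3 CPM at day 5 in the libraries labelled KO. It was lower at day 5 (log2 fold change -1.18 ± 0.15 (SE), edgeR FDR = 3.16e-05), with no overlap between days. In the libraries labelled WT it stood at 97.8 and 91.6 CPM at day 0 and 96.5 and 116 CPM at day 5. At day 0 the KO libraries thus held more Satb1 RNA than the WT libraries, which goes against the label, and only at day 5 did they hold less. Counts over the whole gene can include transcripts that lack the floxed part, and the position of that part is not given in the sources used here, so this reading does not check the deletion and the libraries are called by their label.

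The cell identity given by the labels was checked on marker lists. All 11 CD8 T-cell markers passed the filter, 1 called higher and 6 lower (9.09% and 54.5%, against 26.2% and 24.0% of all tested genes), or 0 and 9 when libraries were scaled by their totals. They included Cd8a at 1377 and 1386 CPM at day 0 and 1216 and 1164 CPM at day 5 and Cd3g at 2271 and 2368 CPM at day 0 and 2203 and 2282 CPM at day 5, neither of them called with the scaling used throughout. The list together took 2.13% and 2.27% of gene counts at day 0 and 1.53% and 1.499% at day 5. On the lists of other cells, some members were at or near 0 and others were not. Cd4, Ms4a1, Lyz2, Adgre1, Cd14, Ncr1 and Hba-a1 had at most 0.947 CPM in any of the 4 libraries. B-cell markers took 0.218% and 0.265% of gene counts at day 0 and 0.148% and 0.153% at day 5, with 3 of 12 tested and all 3 lower. Nearly all of that was Ighm, the heavy chain gene of immunoglobulin M, at 1899 and 2277 CPM at day 0 and 1507 and 1554 CPM at day 5, and Cd79b was at 141 and 164 CPM at day 0 and 79.5 and 83.3 CPM at day 5. Natural killer cell markers took 0.00206% and 0.00156% of gene counts at day 0 and 0.0978% and 0.0668% at day 5, most of it Gzma at day 5, and Klra8 was at 0 in all 4 libraries. Myeloid markers took 0.00238% and 0.00363% of gene counts at day 0 and 0.00736% and 0.00543% at day 5, with Cd68 at 2.23 and 5.14 CPM at day 0 and 68.4 and 46.4 CPM at day 5. Markers of CD4+ and regulatory T cells took 0.0187% and 0.0177% of gene counts at day 0 and 0.184% and 0.218% at day 5, so their summed share was higher at day 5, most of it then Il2ra and Ctla4, which activated CD8 T cells also express. Of the 7 tested, these 2 were called higher and 2 were called lower, and Foxp3 stood at 43.8 and 65.9 CPM at day 0 and 51.7 and 61.9 CPM at day 5 and was not called. Gamma-delta T-cell markers took 0.0168% and 0.0176% of gene counts at day 0 and 0.0478% and 0.0571% at day 5, also higher at day 5. Of the 4 tested, Tcrg-C1, Tcrg-C2 and Tcrg-C4 were called higher and Trdc, the constant gene of the delta chain, was called lower (80.9 and 77.3 CPM at day 0 and 29.4 and 21.4 CPM at day 5). No red cell or platelet marker passed the filter. The part of other cells in the results was not tested. In bulk RNA, fewer cells of a type and less RNA per cell cannot be told apart.

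The change between days was broad. Of the 12597 genes tested, 6325 (50.2%) were called, 3296 (26.2%) higher and 3029 (24.0%) lower at day 5. The increases were the larger ones: by fitted values 522 called genes rose at least 16-fold, while 92 fell by as much, and 1222 against 512 passed 4-fold. A further 2424 called genes differed by less than 2-fold. The genes called higher took 23.2% and 23.3% of gene counts at day 0 and 48.9% and 49.8% at day 5, and those called lower 38.7% and 38.7% of gene counts at day 0 and 17.1% and 16.7% at day 5. The median log2 fold change of all tested genes was -0.046, and the percentiles 10 and 90 were -1.34 and 1.95, which, with the shares called, is the background against which the gene groups are read. Scaling by library totals moved that median by -0.18 and the split to 2755 higher and 3936 lower, and a correction for GC share and length of exons moved it by -0.15 and the split to 2772 and 3663, so changes of small size depend on the scaling. At day 0, 280 of the genes called higher had no library above 3 counts, and for such genes only a lower bound on the fold change is given, taken against 3 counts per library. List members that were near 0 at day 0 passed the filter through day 5 and could hardly be called lower, so a list's count of tested members can be fixed by the filter where it holds such genes.

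**Figure D1:**
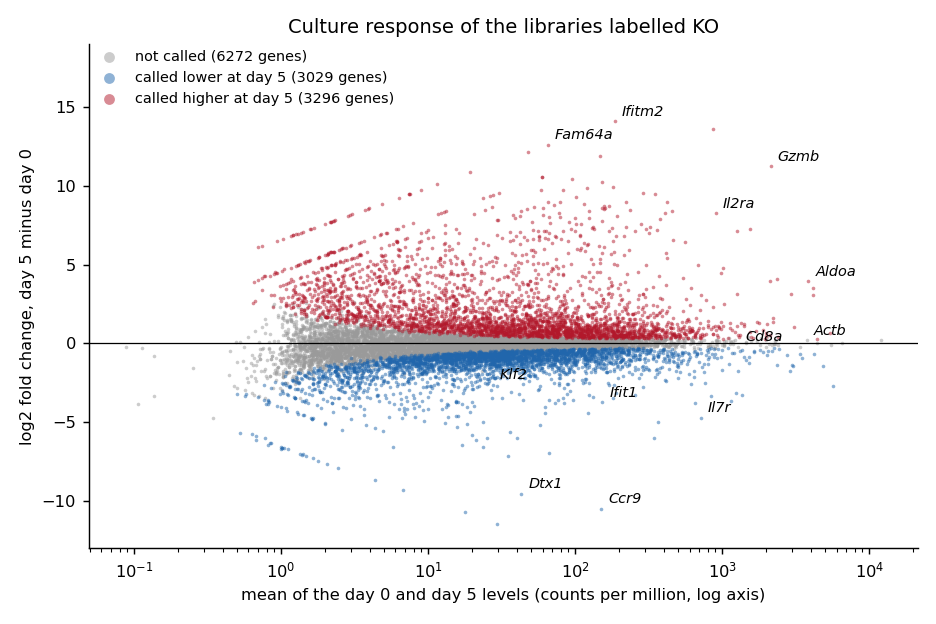
Each point is 1 of the 12597 genes tested in the libraries labelled KO, with its mean level over both days in CPM on a log axis and its log2 fold change (day 5 minus day 0); red and blue points are the 3296 and 3029 genes called higher and lower, grey points the rest. The increases reach further from 0 than the decreases, and the diagonal rows at the left are genes without a count in the libraries of 1 day, whose fitted values depend on the prior count.

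The genes with the largest increases by fitted value belonged to several classes. For genes near 0 counts at day 0 that order depends on the prior count, and Ube2c, outside the 12 named here, rose at least 436-fold. Ifitm2 (chr7:140954837-140955987, minus strand), an interferon-inducible membrane protein that hinders virus entry, had 0 and 0 CPM at day 0 and 355 and 386 CPM at day 5, and its neighbour Ifitm1 had 0.0858 and 0.184 CPM at day 0 and 1799.9 and 1656 CPM at day 5. Neither day 5 library overlapped day 0, and the increases were at least 673-fold and at least 3139-fold (edgeR FDR = 4.70e-10 and 1.50e-10). Ifitm genes lie in a cluster of similar copies and 40.9% of the exon length of Ifitm2 is shared with another gene on the same strand, so the split of reads between them is uncertain. The mitotic genes Fam64a and Pbk rose at least 237-fold and at least 538-fold. Gzmb (chr14:56258838-56262260, minus strand), the granzyme B of cytotoxic granules, was at 1.80 and 1.65 CPM at day 0 and 4602 and 3925 CPM at day 5 (log2 fold change 11.23 ± 0.19 (SE), edgeR FDR = 1.75e-12). Gzmk rose at least 216-fold and Spp1, which encodes osteopontin, at least 216-fold, with 18.8% of its exon length in another gene of the same strand. Cdkn1a, the cyclin-dependent kinase inhibitor p21, was at 0.429 and 0.184 CPM at day 0 and 349 and 380.01 CPM at day 5 (log2 fold change 9.94 ± 0.24 (SE), edgeR FDR = 3.95e-11). The others of the 12 were Asns, an asparagine synthetase (at least 549.8-fold), Endou (at least 344-fold), the inhibitory receptor gene Lilr4b (at least 173-fold) and the potassium channel gene Kcnk5 (at least 41.7-fold). Lilr4b has a near-identical relative, so its value is uncertain to that extent.

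Among genes of 10 CPM or more with an assigned name, the largest decrease by fitted value was that of Ccr9 (chr9:123678439-123784330, plus strand), the receptor for the gut and thymus chemokine CCL25, with 306 and 296 CPM at day 0 and 0.184 and 0.189 CPM at day 5. That is a decrease of at least 529-fold (edgeR FDR = 3.95e-11), and the day 5 values are 1 count per library. A gene on the other strand overlaps part of its exons. Dtx1, a ubiquitin ligase of the Notch pathway, was at 86.0 and 85.5 CPM at day 0 and 0 and 0.189 CPM at day 5, a decrease of at least 151-fold. Car2, a carbonic anhydrase, stood at 673 and 674 CPM at day 0 and 11.6 and 9.66 CPM at day 5 (log2 fold change -5.98 ± 0.18 (SE), edgeR FDR = 8.27e-11). The day 0 level of Car2 was high only in the libraries labelled KO, since the WT libraries held 11.6 and 8.14 CPM at day 0 and 0.882 and 0.964 CPM at day 5. Egr2, an early target of antigen receptor signalling, was at 79.0 and 62.4 CPM at day 0 and 1.66 and 1.14 CPM at day 5 (log2 fold change -5.64 ± 0.30 (SE), edgeR FDR = 1.11e-08). The remaining genes of the 12 were Xkrx (-7.16 on the log2 scale), Fam101b (-6.98), Gabrr2 (-6.43), the ectoenzyme gene Art2b (-6.01), the AMP deaminase gene Ampd1 (-6.01), Trpm1 (-5.85) and Cpne4 (-5.31), and Nfam1, which fell at least 20.1-fold. For all 12 the day 0 libraries lay above the day 5 libraries.

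Factors of quiescence fell as a group. Of 20 listed and tested, 17 were called lower and none higher, against 24.0% and 26.2% of all genes, and the median log2 fold change was -1.71. Tcf7, which encodes TCF-1, was at 1013 and 1079.8 CPM at day 0 and 238 and 236 CPM at day 5 (log2 fold change -2.14 ± 0.12 (SE), edgeR FDR = 1.66e-08). Lef1, its close relative, was at 1121 and 969 CPM at day 0 and 184 and 171 CPM at day 5 (log2 fold change -2.56 ± 0.15 (SE), edgeR FDR = 3.75e-08). Each day 5 library lay far below either day 0 library for both genes. Klf2, which keeps T cells quiescent and sustains homing receptors, stood at 44.8 and 49.9 CPM at day 0 and 7.54 and 7.76 CPM at day 5 (log2 fold change -2.62 ± 0.22 (SE), edgeR FDR = 6.82e-07), and its relative Klf3 at 117 and 119 CPM at day 0 and 7.36 and 7.01 CPM at day 5 (log2 fold change -4.03 ± 0.20 (SE), edgeR FDR = 5.96e-09). The antiproliferative genes Btg1 and Btg2 changed by -2.64 and -2.20 on the log2 scale, and Tsc22d3, a glucocorticoid-induced leucine zipper gene, by -3.14. Foxo1, a transcription factor upstream of several of these genes, fell less (-1.58, edgeR FDR = 3.19e-06). Cdkn1b, which encodes the cell-cycle inhibitor p27, stood at 19.4 and 21.1 CPM at day 0 and 13.6 and 20.3 CPM at day 5 and was not called (edgeR FDR = 0.378), nor were Tob1 and Rbl2. The list took 1.04% and 1.05% of gene counts at day 0 and 0.217% and 0.242% at day 5.

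Among receptors for homing, S1pr1 and the integrin genes Itga4 and Itgae fell and the chemokine receptor genes Ccr2 and Cxcr3 rose. Of 23 listed genes, 19 were tested, 8 were called lower and 6 higher (31.6% higher and 42.1% lower, against 26.2% and 24.0% of all tested genes), so that the share called higher was near that of all genes. S1pr1, the receptor for sphingosine-1-phosphate that guides exit from lymph nodes, was at 1314 and 1277 CPM at day 0 and 222 and 236 CPM at day 5 (log2 fold change -2.50 ± 0.11 (SE), edgeR FDR = 2.75e-09). Ccr7, a chemokine receptor for entry into lymph nodes, kept most of its level, with 1448 and 1371 CPM at day 0 and 941 and 909.8 CPM at day 5 (log2 fold change -0.61 ± 0.10 (SE), edgeR FDR = 3.33e-04). The integrin genes Itga4 and Itgae fell by 3.49 and 3.79 on the log2 scale, while Itgal and Itgb2, the chains of LFA-1, were not called (log2 fold changes 0.068 and 0.15, the latter -0.23 under the correction for GC share and length). Receptors for inflammatory chemokines were among those that rose. Ccr2 was at 0.686 and 4.04 CPM at day 0 and 257 and 172 CPM at day 5 (log2 fold change 6.84 ± 0.44 (SE), edgeR FDR = 7.05e-08), and Cxcr3 at 27.5 and 25.9 CPM at day 0 and 87.2 and 67.2 CPM at day 5 (log2 fold change 1.53 ± 0.19 (SE), edgeR FDR = 2.46e-05). Cd44, the hyaluronan receptor by which antigen-experienced T cells are recognised, was at 7.21 and 7.16 CPM at day 0 and 91.4 and 113 CPM at day 5 (log2 fold change 3.82 ± 0.26 (SE), edgeR FDR = 1.20e-07). Cxcr6 was at 546 and 514 CPM at day 0 and 477 and 343 CPM at day 5 and was not called, and Cd69 was called lower by a small margin (log2 fold change -0.39, edgeR FDR = 0.0352) that was lost under 8 alternatives, among them DESeq2 and its size factors.

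The antigen receptor and its signalling chain changed by smaller amounts. Of 25 genes, 10 were called lower and 2 higher (40% and 8%, against 24.0% and 26.2% of all tested genes), with a median of -0.22. With scaling by library totals these were 16 and 1 with a median of -0.41, and Lck and Cd8a were then called lower (log2 fold changes -0.41 and -0.40, edgeR FDR = 0.00187 and 0.00281). Cd8b1, which encodes the beta chain of CD8, stood at 3366 and 3418 CPM at day 0 and 1368 and 1274 CPM at day 5 (log2 fold change -1.36 ± 0.10 (SE), edgeR FDR = 3.69e-07), whereas Cd8a was not called with the scaling used throughout (log2 fold change -0.21 ± 0.11 (SE), edgeR FDR = 0.112). The constant chain gene Trac was at 2612 and 2854 CPM at day 0 and 2063 and 2143 CPM at day 5 (log2 fold change -0.38 ± 0.11 (SE), edgeR FDR = 0.0103), a call that was lost without day 0 replicate 2 or day 5 replicate 1. The kinase genes Lck, Fyn and Zap70 and the adaptor genes Lat and Lcp2 were not called with that scaling, with log2 fold changes between -0.22 and 0.22. Among negative regulators, Cd5, Cd6 and Dgka changed by -1.17, -1.61 and -1.09 on the log2 scale, and the phosphatase gene Ptpn22 was higher (0.93, edgeR FDR = 2.83e-05). For Cd247, 56.4% of the exon length lies within exons of the opposite strand, and the strand setting of the counting is not given in the sources used here, so its log2 fold change of -0.67 is uncertain.

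Cytotoxic genes rose, granzymes foremost. Of 21 listed genes 16 were tested, 11 were called higher (68.75%, against 26.2% of all tested genes) and none lower, and the median was 1.05. Gzmk and Gzmc, among those called higher, had at most 2 counts in a day 0 library. Gzma was at 1.37 and 2.20 CPM at day 0 and 1005 and 675 CPM at day 5 (log2 fold change 8.97 ± 0.46 (SE), edgeR FDR = 7.72e-09). Fasl, the ligand of the death receptor Fas, was at 3.77 and 3.67 CPM at day 0 and 462 and 387 CPM at day 5 (log2 fold change 6.82 ± 0.31 (SE), edgeR FDR = 2.65e-09). Prf1, which encodes the pore-forming perforin, did not follow the granzymes: it stood at 152 and 134 CPM at day 0 and 137 and 121 CPM at day 5, and the days overlapped (log2 fold change -0.15 ± 0.18 (SE), edgeR FDR = 0.510). The granule genes Srgn, Ctsw and Lamp1 were also not called. Nkg7 and Cst7, which encode granule proteins, were higher by 1.0 and 1.08 on the log2 scale, and Serpinb9, an inhibitor of granzyme B, by 1.47. Gzmd, Gzme, Gzmf, Gzmg and Gzmn had at most 0.379 CPM in any library and were not tested, and Gzmc rose at least 22.2-fold to about 12.1 CPM. The granzymes are similar in sequence, and reads common to several would have been set aside by the counting.

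Most of the cytokine genes listed were low at day 5, while Lta, Ccl5, Il16, Spp1 and Tnf stood higher. Of 21 genes, 10 passed the filter, 6 were called higher and 2 lower (60% and 20%, against 26.2% and 24.0% of all tested genes). Of the 6, Ifng, Il10 and Spp1 had at most 1 count in a day 0 library and passed the filter through day 5. Lta, which encodes lymphotoxin alpha, was at 23.4 and 21.1 CPM at day 0 and 476 and 558 CPM at day 5 (log2 fold change 4.53 ± 0.26 (SE), edgeR FDR = 2.21e-08). Ccl5, a chemokine stored by memory and effector cells, was at 68.8 and 122 CPM at day 0 and 472 and 235 CPM at day 5 (log2 fold change 1.90 ± 0.34 (SE), edgeR FDR = 5.79e-04). Tnf was at 4.55 and 3.30 CPM at day 0 and 31.8 and 35.6 CPM at day 5 (log2 fold change 3.05 ± 0.25 (SE), edgeR FDR = 6.06e-07). Ifng, the gene of interferon gamma, was without a count at day 0 and at 3.13 and 2.08 CPM at day 5, an increase of at least 4.73-fold to a level that remained near the floor. Il2 stood at 5.83 and 9.18 CPM at day 0 and 3.49 and 4.17 CPM at day 5 and was not called (edgeR FDR = 0.0695). Il16 fell from 582 and 490 CPM at day 0 to 315 and 304 CPM at day 5 (log2 fold change -0.79 ± 0.12 (SE), edgeR FDR = 1.85e-04). Il3, Il4, Il5, Il13, Il21 and Csf2 had at most 0.379 CPM in any of the 4 libraries.

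**Figure D2:**
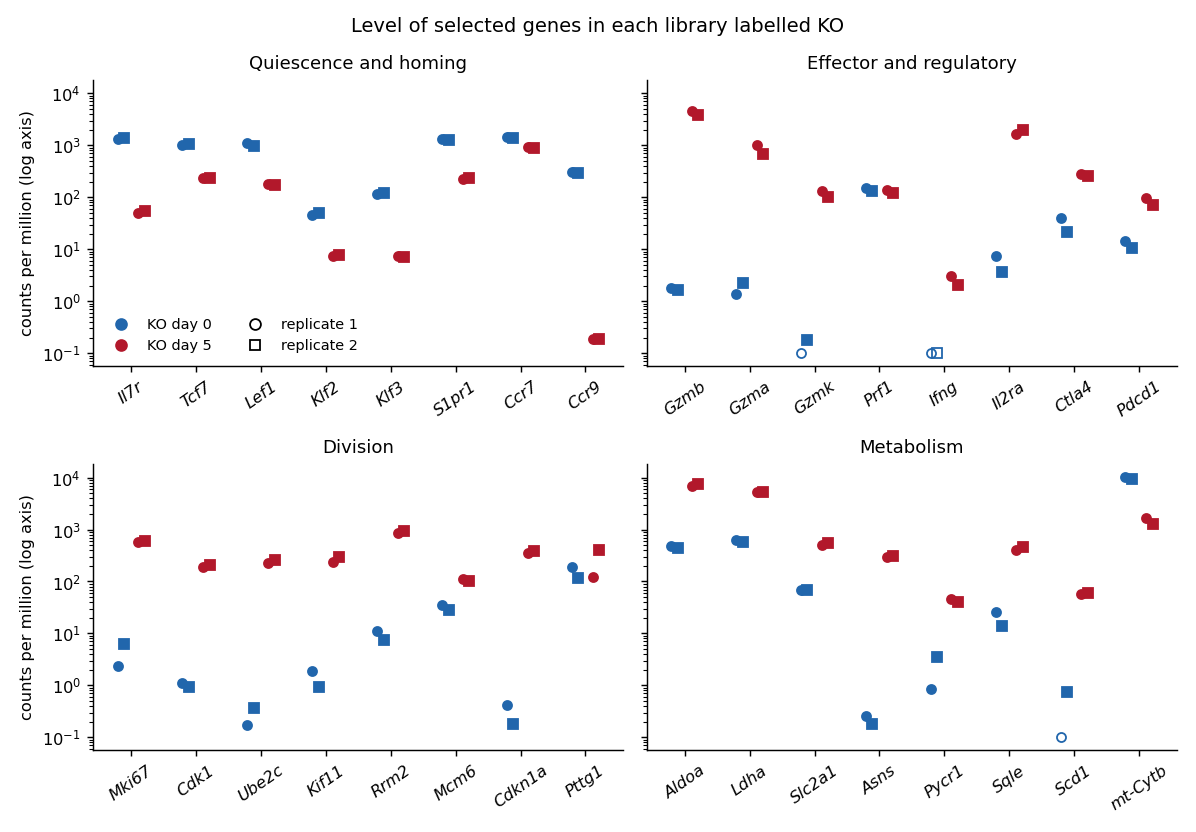
Level in CPM (log axis) of 32 genes in each of the 4 libraries labelled KO, blue for day 0 and red for day 5, circles for replicate 1 and squares for replicate 2; open symbols are values under 0.1 CPM drawn at 0.1, and the genes were picked to show each group. Gzmb and Il2ra lie near 1 to 10 CPM at day 0 and above 1000 CPM at day 5, Prf1 and Pttg1 overlap between days, and Ccr9 falls to the level of a single count.

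Among cytokine receptors, chains for interleukin-7 and interleukin-6 were lower. The interleukin-2 receptor chains Il2ra and Il2rb and chains for interleukin-12 and interleukin-18 were higher. Of 23 listed, 21 were tested, with 8 called higher and 8 lower (38.1% higher and 38.1% lower, against 26.2% and 24.0% of all tested genes). Il7r was at 1356 and 1394 CPM at day 0 and 49.5 and 55.1 CPM at day 5 (log2 fold change -4.72 ± 0.18 (SE), edgeR FDR = 6.11e-10). Il6ra and Il6st, the receptor and the signalling chain for interleukin-6, changed by -5.11 and -3.29 on the log2 scale. Il2ra, the alpha chain that gives the interleukin-2 receptor its high affinity, was at 7.38 and 3.67 CPM at day 0 and 1626 and 1982 CPM at day 5 (log2 fold change 8.24 ± 0.27 (SE), edgeR FDR = 1.78e-10). Its partner Il2rb was higher by 1.27 and Il2rg, the chain common to several receptors, was lower (-0.69 on the log2 scale), with 30.5% of its exon length shared with a gene of the same strand. Il12rb2 was at 3.35 and 1.47 CPM at day 0 and 418 and 468 CPM at day 5 (log2 fold change 7.36 ± 0.26 (SE), edgeR FDR = 3.21e-10), although exons of a gene on the opposite strand cover 40.0% of its exon length. Il18rap was at 14.2 and 16.3 CPM at day 0 and 164 and 176 CPM at day 5 (log2 fold change 3.49 ± 0.16 (SE), edgeR FDR = 2.37e-09), and Tgfbr2, a receptor for the growth inhibitor TGF-beta, at 149.9 and 107 CPM at day 0 and 29.98 and 27.1 CPM at day 5 (log2 fold change -2.18 ± 0.18 (SE), edgeR FDR = 9.03e-07).

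Among 28 transcription factors of effector and exhausted cells, 24 were tested, 13 were called higher and 6 lower (54.2% higher and 25% lower, the second near the 24.0% of all genes), with a median of 1.31. Bhlhe40, a repressor induced by antigen receptor signalling, was at 0.858 and 2.20 CPM at day 0 and 428 and 514 CPM at day 5 (log2 fold change 8.46 ± 0.26 (SE), edgeR FDR = 1.22e-10). Nfil3 rose at least 285-fold (edgeR FDR = 6.06e-09). Irf4, which scales effector expansion with receptor signal, was at 2.57 and 2.94 CPM at day 0 and 44.7 and 40.7 CPM at day 5 (log2 fold change 3.97 ± 0.32 (SE), edgeR FDR = 6.51e-07), and Id2 at 172 and 112 CPM at day 0 and 606 and 398 CPM at day 5 (log2 fold change 1.81 ± 0.23 (SE), edgeR FDR = 3.53e-05). Tbx21, the gene of T-bet, was called higher but reached only 2.94 and 3.79 CPM, a call that DESeq2 did not make, and Prdm1, the gene of BLIMP-1, at 4.60 and 4.92 CPM. Tox, a factor of exhausted cells, stood at 298 and 265 CPM at day 0 and 113 and 133 CPM at day 5 (log2 fold change -1.20 ± 0.18 (SE), edgeR FDR = 1.26e-04), and Nr4a1 at 19.9 and 12.5 CPM at day 0 and 2.94 and 1.89 CPM at day 5 (log2 fold change -2.75 ± 0.43 (SE), edgeR FDR = 1.88e-04). Both lay lower in each day 5 library than in either day 0 library. Runx3, Stat3, Stat4 and Zeb1 were not called.

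Inhibitory receptors rose in part. Of 15 genes 14 were tested, 9 were called higher and 3 lower (64.3% higher and 21.4% lower), and the median was 1.89. Pdcd1, the gene of PD-1, was at 14.8 and 10.6 CPM at day 0 and 99.3 and 69.9 CPM at day 5 (log2 fold change 2.71 ± 0.30 (SE), edgeR FDR = 1.19e-05). Ctla4 was at 40.3 and 21.7 CPM at day 0 and 276 and 262 CPM at day 5 (log2 fold change 3.08 ± 0.22 (SE), edgeR FDR = 1.85e-07). Tigit was at 0.429 and 1.10 CPM at day 0 and 58.3 and 42.4 CPM at day 5 (log2 fold change 6.22 ± 0.36 (SE), edgeR FDR = 2.32e-08), and Entpd1, the ectonucleotidase CD39, at 0.257 and 1.47 CPM at day 0 and 135 and 134 CPM at day 5 (log2 fold change 7.63 ± 0.41 (SE), edgeR FDR = 1.15e-08). Havcr2, the gene of TIM-3, rose at least 13.5-fold to 9.01 and 5.87 CPM. Lag3 had at most 0.947 CPM and was not tested. Btla fell (-1.72, edgeR FDR = 9.18e-07), and Vsir and Cd200 were not called. Of 16 killer lectin-like receptors listed 5 were tested, and 3 of these, Klrc1, Klre1 and Klrb1f, had at most 4 counts in a day 0 library and passed the filter through day 5, so no count is read for the group. Klrk1, the gene of the activating receptor NKG2D, was at 4.55 and 6.79 CPM at day 0 and 68.6 and 79.7 CPM at day 5 (log2 fold change 3.76 ± 0.22 (SE), edgeR FDR = 2.57e-08), and Klrd1 was not called. Klrg1 and the Klra genes were at or below 0.918 CPM.

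Of 18 costimulatory receptors and ligands, 10 were called higher and 6 lower (55.6% higher and 33.3% lower), and members of the tumour necrosis factor receptor family were found in both directions. Tnfrsf9, the gene of 4-1BB, was at 22.05 and 17.8 CPM at day 0 and 2863 and 3282 CPM at day 5 (log2 fold change 7.25 ± 0.18 (SE), edgeR FDR = 3.95e-11). Tnfrsf4, the gene of OX40, was at 1.63 and 2.94 CPM at day 0 and 93.8 and 107 CPM at day 5 (log2 fold change 5.57 ± 0.24 (SE), edgeR FDR = 1.40e-09), and Tnfrsf18, the gene of GITR, at 289 and 334 CPM at day 0 and 1571 and 1936 CPM at day 5 (log2 fold change 2.49 ± 0.14 (SE), edgeR FDR = 2.46e-08). Tnfrsf25 and Cd27, of the same family, were lower (-2.43 and -0.73), and Cd28 was slightly higher (0.35, edgeR FDR = 0.0256), a call lost under 8 alternatives, among them scaling by library totals. Slamf7 rose (4.96) while its relative Slamf6, found on stem-like T cells, fell (-2.33).

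Genes of cell division were nearly all called in 1 direction, by amounts that differed widely. All 41 mitosis genes listed were tested, 40 were called higher (97.6%, against 26.2% of all tested genes) and none lower. The median log2 fold change was 7.09, beside -0.046 for all genes, and values ran from 0.80 to 11.86. Members such as Pbk, Ube2c and Cdc25c had at most 5 counts in a day 0 library and passed the filter through day 5. Such members could hardly be called lower, so that part of the count was fixed by the filter. The list took 0.0529% and 0.0474% of gene counts at day 0 and 1.15% and 1.31% at day 5. Mki67, the proliferation marker Ki-67, was at 2.40 and 6.24 CPM at day 0 and 584 and 613 CPM at day 5 (log2 fold change 7.28 ± 0.35 (SE), edgeR FDR = 4.94e-09). Cdk1, the kinase that starts mitosis, was at 1.12 and 0.918 CPM at day 0 and 194 and 207 CPM at day 5 (log2 fold change 7.55 ± 0.22 (SE), edgeR FDR = 6.53e-11). Top2a, the topoisomerase that untangles chromosomes, was at 23.6 and 11.2 CPM at day 0 and 2413 and 2613 CPM at day 5 (log2 fold change 7.11 ± 0.26 (SE), edgeR FDR = 4.25e-10). For each of them the lower day 5 library exceeded the higher day 0 library many times over. Ccna2 and Kif23 rose less, by 1.91 and 1.78 on the log2 scale, from day 0 levels of 24.7 CPM or more. The member that was not called was Pttg1, the gene of the separase inhibitor securin, at 186 and 118 CPM at day 0 and 125 and 407 CPM at day 5 (log2 fold change 0.80 ± 0.39 (SE), edgeR FDR = 0.104). Its day 5 replicates differed from each other more than the days did, and without day 5 replicate 1 it was called (log2 fold change 1.42), whereas without day 5 replicate 2 the direction turned (-0.29, not called).

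DNA replication genes rose as broadly and by less. Of 42, all were tested, 40 were called higher (95.2%, against 26.2% of all tested genes) and none lower, with a median of 2.33. The 2 others, Pola2 and Ccne1, had log2 fold changes of 0.56 and 0.70. The subunits Mcm2 to Mcm7 of the replicative helicase, which were already present at day 0, rose by 1.15 to 2.51. Mcm3 was at 115 and 124 CPM at day 0 and 601 and 609.7 CPM at day 5 (log2 fold change 2.34 ± 0.13 (SE), edgeR FDR = 2.16e-08). The loading and firing factor genes Cdc6 and Mcm10, between 1.63 and 3.60 CPM at day 0, rose by 6.04 and 5.89. Rrm2, the regulated subunit of ribonucleotide reductase, was at 10.98 and 7.34 CPM at day 0 and 868 and 956 CPM at day 5 (log2 fold change 6.58 ± 0.19 (SE), edgeR FDR = 5.93e-11). The repressor genes E2f7 and E2f8, with no day 0 library above 3 counts, passed the filter through day 5 and rose at least 22.4-fold and at least 47.2-fold. Gins2, Fen1 and Chaf1a each share more than 50% of their exon length with a gene on the other strand, so their increases (2.34, 1.56 and 4.39) are uncertain in size.

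The promoters of these groups were searched in RefSeq sequence (GRCm38.p6) for letters known from cell-cycle genes, since nearly all members were called in 1 direction. The 250 bases before each listed start were read on both strands, and 32 of 41 mitosis genes and 34 of 42 replication genes had an entry. The cell cycle homology region (TTTGAA or TTCGAA), bound by repressor complexes in resting cells, was found in 37.5% of mitosis genes, 29.4% of replication genes and 15.0% of the 8627 tested genes with an entry. The CCAAT box (CCAAT) was found in 68.8% of mitosis genes, 58.8% of replication genes and 40.6% of tested genes. It was also found in lists outside the cell cycle, with 75% of sterol genes, 60% of amino acid genes and 57.9% of the quiescence factors, which fell. An E2F site (TTTCCCGC, TTTCGCGC, TTTGCCGC or TTTGGCGC) was found in 29.4% of replication genes, 6.25% of mitosis genes and 4.16% of tested genes. None of these strings contains another, although neighbouring matches can overlap. A match is not a bound site, and no occupancy was measured. The stretches shown are 120 bases of the gene's strand, 5′ to 3′, nearest to the start and outside annotated exons. They belong to the 3 called mitosis genes with the largest increases that hold the homology region there, with that motif and the CCAAT box in capitals, in either orientation. The last stretch belongs to Mcm6, the 1 called replication gene found under the same exclusions to hold an E2F site in such a stretch, with that site in capitals.
Cdk1 (chr10:69352939-69353058, minus strand): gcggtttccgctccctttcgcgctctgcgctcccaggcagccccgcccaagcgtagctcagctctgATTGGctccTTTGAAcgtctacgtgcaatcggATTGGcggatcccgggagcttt
Kif11 (chr19:37376262-37376381, plus strand): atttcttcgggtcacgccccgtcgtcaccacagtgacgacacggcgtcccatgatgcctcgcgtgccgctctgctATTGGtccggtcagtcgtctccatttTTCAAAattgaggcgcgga
Mki67 (chr7:135716380-135716499, minus strand): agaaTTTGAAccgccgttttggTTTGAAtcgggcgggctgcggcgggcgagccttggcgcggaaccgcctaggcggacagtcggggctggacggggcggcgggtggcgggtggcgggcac
Mcm6 (chr1:128359706-128359825, minus strand): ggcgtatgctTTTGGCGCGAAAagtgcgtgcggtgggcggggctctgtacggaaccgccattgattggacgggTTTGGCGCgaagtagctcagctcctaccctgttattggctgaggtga

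Cdk1 and Kif11 hold a homology region and at least 1 CCAAT box in these stretches, Mki67 holds the homology region at 116 and again at 98 bases before its start and no CCAAT box, and Mcm6 holds overlapping E2F letters 110 and 106 bases before its start and a further match at 47. Their increases ranged from 1.72 for Mcm6 to 7.55 for Cdk1 on the log2 scale, and Kif11 stood at 1.89 and 0.918 CPM at day 0 and 234 and 291 CPM at day 5 (log2 fold change 7.38 ± 0.30 (SE), edgeR FDR = 8.69e-10).

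Glycolysis genes rose at nearly every step of the pathway. Of 23 genes, 22 were called higher (95.7%, against 26.2% of all tested genes) and none lower, with a median of 3.11. The list took 0.443% and 0.422% of gene counts at day 0 and 3.84% and 4.07% at day 5. For import of glucose, Slc2a3 was at 264 and 266 CPM at day 0 and 4252 and 4685 CPM at day 5 (log2 fold change 4.07 ± 0.13 (SE), edgeR FDR = 1.29e-10) and Slc2a1 at 68.5 and 69.5 CPM at day 0 and 512 and 546 CPM at day 5 (log2 fold change 2.94 ± 0.19 (SE), edgeR FDR = 6.61e-08). Hk2, an inducible hexokinase, was at 0.686 and 1.28 CPM at day 0 and 135 and 118 CPM at day 5 (log2 fold change 7.12 ± 0.25 (SE), edgeR FDR = 2.83e-10), while Hk1 changed by 0.81, a call lost without day 5 replicate 2. Aldoa, an aldolase, was at 476 and 451 CPM at day 0 and 6909 and 7512 CPM at day 5 (log2 fold change 3.96 ± 0.11 (SE), edgeR FDR = 5.78e-11). Among the last steps, Pkm was at 678 and 648 CPM at day 0 and 7382 and 7974 CPM at day 5 and Ldha, which makes lactate, at 637 and 586 CPM at day 0 and 5299.9 and 5308 CPM at day 5, with log2 fold changes of 3.53 and 3.12. Slc16a3, an exporter of lactate, was at 0.257 and 0.918 CPM at day 0 and 53.3 and 62.7 CPM at day 5 (log2 fold change 6.86 ± 0.36 (SE), edgeR FDR = 9.39e-09). Ldhb, the subunit that favours the reverse reaction, was the member not called, at 88.8 and 82.9 CPM at day 0 and 52.6 and 68.5 CPM at day 5 (edgeR FDR = 0.0874), and it was called lower with scaling by library totals (log2 fold change -0.69). Gapdh was listed at 6.26 and 6.61 CPM at day 0 and 87.6 and 88.8 CPM at day 5, and it has many processed copies in the genome whose reads the counting would have set aside.

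Genes for amino acid supply and one-carbon metabolism were higher in 21 of 27 tested and lower in 1 (77.8% and 3.70%, against 26.2% and 24.0% of all tested genes), with a median of 1.62. Asns was at 0.257 and 0.184 CPM at day 0 and 289.5 and 316 CPM at day 5, at least 549.8-fold higher. Psat1 of serine synthesis was at 51.0 and 51.4 CPM at day 0 and 568 and 537 CPM at day 5 (log2 fold change 3.43 ± 0.15 (SE), edgeR FDR = 2.37e-09), and Mthfd2, a mitochondrial folate enzyme, at 48.6 and 50.3 CPM at day 0 and 249.8 and 249 CPM at day 5 (log2 fold change 2.34 ± 0.13 (SE), edgeR FDR = 2.05e-08). Trib3 and Pycr1 rose by 5.65 and 4.56. Transporters did not move together. Slc7a5 and Slc3a2, which form the carrier of large neutral amino acids, changed by 1.93 and 1.80. Slc1a5 and Slc38a2 were not called, and Slc38a1 was the member called lower (-0.39), a value that turned to 0.0026 under the correction for GC share and length of exons. An amino acid response element (TGATGNAA, either strand), through which ATF4 acts, was found in the 250 bases before the start of 4 of 25 genes with an entry (16%) and of 2.42% of tested genes. Pycr1, a proline synthesis enzyme, was the member with the largest increase that holds it in 120 bases outside exons, with the match in capitals 103 bases before its start.
Pycr1 (chr11:120643770-120643889, minus strand): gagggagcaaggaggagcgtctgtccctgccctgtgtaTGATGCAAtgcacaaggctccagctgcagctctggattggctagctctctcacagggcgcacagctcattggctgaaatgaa

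Sterol and fatty acid genes were called higher in 26 of 31 and lower in 2 (83.9% and 6.45%, against 26.2% and 24.0% of all tested genes), with a median of 2.25. Hmgcs1 of the mevalonate pathway was at 159 and 143 CPM at day 0 and 1222 and 1355 CPM at day 5 (log2 fold change 3.09 ± 0.14 (SE), edgeR FDR = 2.28e-09). Sqle, which commits the pathway to sterols, was at 26.2 and 13.8 CPM at day 0 and 409 and 452 CPM at day 5 (log2 fold change 4.38 ± 0.25 (SE), edgeR FDR = 2.19e-08). The desaturase genes Scd1 and Scd2 were higher by 7.81 and 3.66. Both members called lower export cholesterol: Abca1 was at 30.2 and 20.4 CPM at day 0 and 1.47 and 2.08 CPM at day 5 (log2 fold change -3.83 ± 0.36 (SE), edgeR FDR = 2.33e-06) and Abcg1 changed by -1.23. Srebf1 and Srebf2, the genes of the regulators SREBP-1 and SREBP-2, were not called (edgeR FDR = 0.187 and 0.101). The sterol response element (TCACNCCAC) was found before 1 of 20 genes of the list with an entry (5%), against 1.23% of tested genes and 9.09% of glycolysis genes.

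Nuclear genes of respiration rose by less, and mitochondrial transcripts fell. Of 37 nuclear genes of the respiratory chain and citrate cycle, 25 were called higher and 1, Ogdh, lower (67.6% and 2.70%, against 26.2% and 24.0% of all tested genes). The median was 0.72. With scaling by library totals 19 were higher and 3 lower, and the median was 0.33 under the correction for GC share and length of exons. Atp5b, the beta subunit of ATP synthase, was at 126 and 149 CPM at day 0 and 222 and 229 CPM at day 5 (log2 fold change 0.72 ± 0.14 (SE), edgeR FDR = 9.57e-04). The day 5 libraries of Atp5b lay above both day 0 libraries. In contrast, 14 of 21 tested genes of the mitochondrial genome were called lower and 0 higher, against 24.0% and 26.2% of all tested genes, with a median of -1.54. They took 1.82% and 1.67% of gene counts at day 0 and 0.507% and 0.449% at day 5. Much of that share was mt-Cytb, named after its value was seen, at 10297 and 9379 CPM at day 0 and 1692 and 1291 CPM at day 5 (log2 fold change -2.72 ± 0.25 (SE), edgeR FDR = 1.81e-06). Reads that also match nuclear copies of mitochondrial DNA would have been set aside by the counting.

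**Figure D3:**
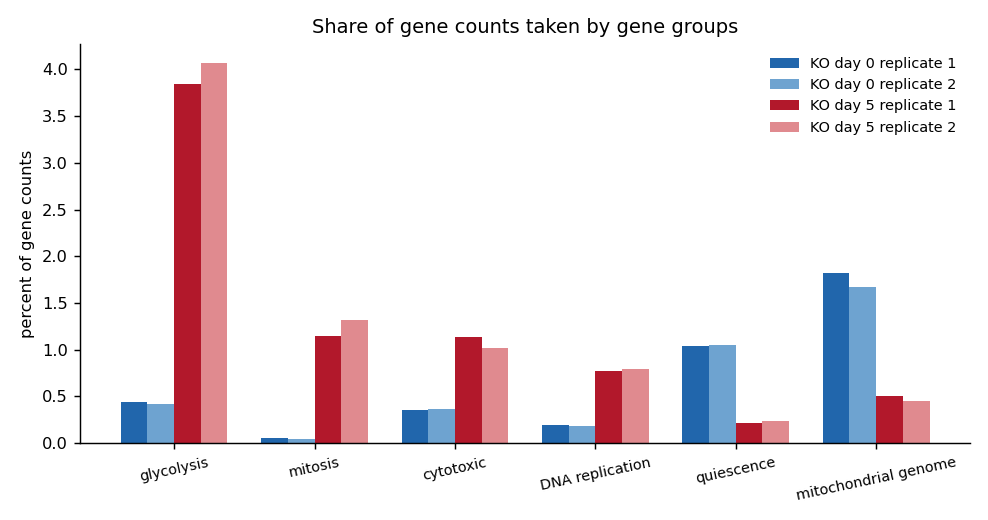
Share of gene counts (percent, bars from 0) taken by 6 gene groups in each of the 4 libraries labelled KO, blue shades for day 0 and red shades for day 5. Glycolysis genes rise from 0.443% and 0.422% to 3.84% and 4.07% of counts, mitosis and replication genes rise, and quiescence factors and the mitochondrial genome shrink, with replicates closer to each other than to the other day in every group.

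Of 39 interferon-stimulated genes, 36 were tested, 19 were called lower and 10 higher (27.8% higher and 52.8% lower, the first near the 26.2% of all genes), with a median of -0.75. Antiviral genes of type I interferon were among those that fell. Ifit1 was at 342 and 227 CPM at day 0 and 26.3 and 16.3 CPM at day 5 (log2 fold change -3.74 ± 0.48 (SE), edgeR FDR = 3.88e-05), Ifit3 at 142 and 96.5 CPM at day 0 and 7.36 and 3.79 CPM at day 5 (log2 fold change -4.41 ± 0.45 (SE), edgeR FDR = 5.45e-06) and Irf7, their regulator, at 142 and 142 CPM at day 0 and 40.7 and 40.3 CPM at day 5 (log2 fold change -1.81 ± 0.21 (SE), edgeR FDR = 1.45e-05). The day 5 replicates of Isg15 stood apart from each other at 18.8 and 5.87 CPM, below 65.5 and 39.6 CPM at day 0, and its call was lost with DESeq2 and without day 5 replicate 2. Among the members called higher were 2 GTPase genes of the interferon gamma response, Igtp at 1407 and 1042 CPM at day 0 and 3109.9 and 2572 CPM at day 5 (log2 fold change 1.21 ± 0.17 (SE), edgeR FDR = 8.36e-05) and Gbp3 at 86.0 and 67.9 CPM at day 0 and 265 and 213 CPM at day 5 (log2 fold change 1.63 ± 0.17 (SE), edgeR FDR = 5.61e-06), and the 3 Ifitm genes and Ly6a (log2 fold change 4.16) rose most. Ifng itself was at 3.13 and 2.08 CPM at day 5.

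Of 23 tested immediate early genes, 9 were called higher and 10 lower, or 39.1% higher and 43.5% lower, against 26.2% and 24.0% of all tested genes. Besides Egr2, the phosphatase gene Dusp10 fell (-2.20) and Nfkbia, the inhibitor of NF-kappaB, fell (-1.31), whereas Dusp6, an ERK phosphatase, was at 25.6 and 23.5 CPM at day 0 and 143 and 153 CPM at day 5 (log2 fold change 2.59 ± 0.15 (SE), edgeR FDR = 2.57e-08). Fos and Junb were not called, at no more than 10.1 CPM in any library. MHC class I and peptide loading genes had 5 of 22 higher (22.7%) and 6 lower (27.3%), near the 26.2% and 24.0% of all tested genes (4 and 8 with scaling by library totals), and B2m was at 7245 and 5849 CPM at day 0 and 6557 and 6469.8 CPM at day 5, with the days overlapping.

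Of 25 tested genes of survival and death, 10 were called higher and 3 lower (40% higher and 12% lower), the lower share being below the 24.0% of all tested genes. Bcl2, the gene of the protein that blocks mitochondrial death, was at 245 and 281 CPM at day 0 and 948 and 1336 CPM at day 5 (log2 fold change 2.12 ± 0.16 (SE), edgeR FDR = 2.80e-07), and Bcl2l1, the gene of BCL-XL, at 12.5 and 15.6 CPM at day 0 and 48.2 and 71.4 CPM at day 5 (log2 fold change 2.1 ± 0.23 (SE), edgeR FDR = 1.06e-05). Mcl1, a short-lived protein of the same family, was at 198 and 202 CPM at day 0 and 57.9 and 54.3 CPM at day 5 (log2 fold change -1.83 ± 0.14 (SE), edgeR FDR = 3.32e-07). Among genes that favour death, Pmaip1 was at 38.3 and 26.6 CPM at day 0 and 105 and 149 CPM at day 5 (log2 fold change 1.95 ± 0.32 (SE), edgeR FDR = 2.53e-04), while Bcl2l11, the gene of BIM, was not called (log2 fold change 0.12).

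Annexin, S100 and cytoskeletal genes were higher in 21 of 24 tested and lower in 1 (87.5% and 4.17%, against 26.2% and 24.0% of all tested genes), with a median of 1.42. Lgals1, which encodes galectin-1, was at 76.4 and 96.3 CPM at day 0 and 1947 and 1806 CPM at day 5 (log2 fold change 4.45 ± 0.15 (SE), edgeR FDR = 1.92e-10). Lgals3 was at 1.12 and 0.367 CPM at day 0 and 425 and 463 CPM at day 5 (log2 fold change 8.97 ± 0.32 (SE), edgeR FDR = 3.79e-10), S100a6 at 0.600 and 1.65 CPM at day 0 and 710.02 and 689 CPM at day 5 (log2 fold change 9.49 ± 0.26 (SE), edgeR FDR = 5.27e-11) and Vim, the gene of vimentin, at 89.0 and 111 CPM at day 0 and 1029.9 and 1224 CPM at day 5 (log2 fold change 3.50 ± 0.16 (SE), edgeR FDR = 3.32e-09). Actb was not called. Among metallothionein and redox genes, 12 of 21 were higher and 3 lower (57.1% higher and 14.3% lower). Mt1, which binds zinc, rose at least 212-fold to 113 and 121 CPM, while the zinc exporter gene Slc30a1 fell (-3.07). Txn1, the gene of thioredoxin, was at 99.8 and 87.0 CPM at day 0 and 512 and 519 CPM at day 5 (log2 fold change 2.46 ± 0.15 (SE), edgeR FDR = 3.68e-08).

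Genes of ribosome biogenesis were mostly not called. Of 29 tested, 5 were called higher and 4 lower (17.2% and 13.8%, against 26.2% and 24.0% of all tested genes). With scaling by library totals these were 4 and 11. The median was -0.22 (-0.41 with library totals). Npm1, the gene of nucleophosmin, was at 571 and 539.5 CPM at day 0 and 1397 and 1445 CPM at day 5 (log2 fold change 1.36 ± 0.11 (SE), edgeR FDR = 7.26e-07), Nop56 at 586 and 637 CPM at day 0 and 689 and 503 CPM at day 5 (not called) and Utp20 at 48.0 and 39.5 CPM at day 0 and 13.2 and 9.28 CPM at day 5 (log2 fold change -1.96 ± 0.22 (SE), edgeR FDR = 1.07e-05). Enzymes of DNA methylation and histone modification gave 8 of 29 tested higher and 10 lower, or 27.6% and 34.5% against 26.2% and 24.0% of all tested genes, and 11 were not called. As single members, Ezh2, the methyltransferase of Polycomb complex 2, was higher (1.25), the histone acetylase gene Crebbp and the methyltransferase gene Kmt2d were lower (-1.51 and -1.87), and Hells, a chromatin remodeller of replicating cells, was at 6.43 and 9.36 CPM at day 0 and 63.6 and 58.7 CPM at day 5 (log2 fold change 3.0 ± 0.22 (SE), edgeR FDR = 2.76e-07).

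**Figure D4:**
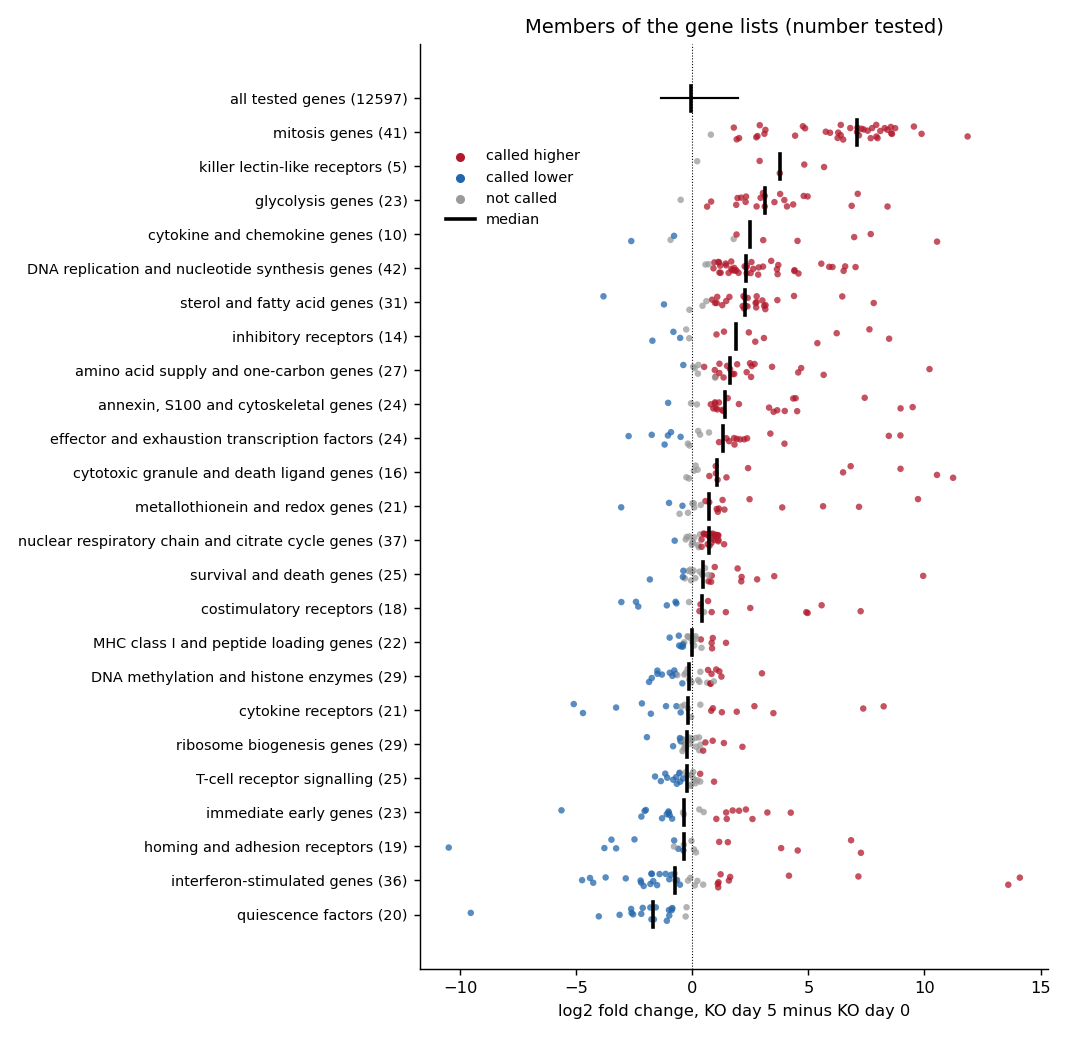
Log2 fold change (day 5 minus day 0) of each tested member of 24 gene lists in the libraries labelled KO, with red, blue and grey points for members called higher, called lower and not called, a black bar at each list's median and the number tested in brackets; the top row gives the median of all 12597 genes and the span of their percentiles 10 to 90. Mitosis genes have the highest median (7.09) and quiescence factors the lowest (-1.71).

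Some of the most abundant transcripts kept their place. Tmsb4x, the gene of thymosin beta 4, was at 11430.3 and 10797 CPM at day 0 and 13462 and 12211 CPM at day 5 (edgeR FDR = 0.118), and Ptprc, the gene of CD45, at 5859 and 5388 CPM at day 0 and 5506 and 5066 CPM at day 5 (edgeR FDR = 0.492). Neither was called. Among called genes above 200 CPM, the smallest differences were those of Rpl4 (0.27 ± 0.093, edgeR FDR = 0.0272), Sf3b1 (-0.30, edgeR FDR = 0.0268) and Rps9 (0.30, edgeR FDR = 0.0291), which shows how small a change passed the test at these depths. Under the correction for GC share and length of exons Rpl4 and Rps9 turned to -0.083 and -0.098, and their calls were lost with scaling by library totals. Ranked by counts per exon length, Tmsb4x and B2m were the first and second of both days among nuclear genes with an assigned name, while mt-Cytb lay above them at day 0. Gzmb, Aldoa, Lgals1 and Tmsb10 were among the 10 of day 5 and not of day 0, and Cd8b1, Trbc2, Arhgdib and Il2rg only among those of day 0. By class, 48 of 266 long intergenic RNA genes were called higher and 85 lower, and 127 of 486 processed pseudogenes were higher and 18 lower. Of all tested genes, 26.2% were higher and 24.0% lower. The share of processed pseudogenes called higher was thus near that of all genes, and only their share called lower was below it. Reads of processed pseudogenes cannot always be told from those of their parent genes.

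Few genes differed detectably in their response from the libraries labelled WT. The difference of the 2 responses was tested for every gene as the genotype by day interaction, and 20 genes (0.159%) were called, 10 with a higher and 10 with a lower value in KO, while 1562 had an unadjusted p under 0.05. Such a count does not show that the other genes responded alike. It was 139 with DESeq2, and it rested on single libraries: 0 genes were called without WT day 0 replicate 1, 1 without WT day 0 replicate 2, 3 without KO day 5 replicate 1, 4 without KO day 5 replicate 2, 30 without KO day 0 replicate 2 and 41 without WT day 5 replicate 1. List medians in the WT response were 7.06 for mitosis, 2.80 for glycolysis, -1.26 for quiescence factors and 0.94 for inhibitory receptors.

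Of the members described above, Ctla4, Klrk1, Pttg1, Tcrg-C2 and Satb1 (difference -1.34 ± 0.21 (SE), edgeR FDR = 0.0269) were called in that test. Ctla4 began at 40.3 and 21.7 CPM in KO against 3.22 and 2.71 CPM in WT and ended near 262 to 295 CPM in both, so that the response was smaller in KO (difference -3.47 ± 0.38 (SE), edgeR FDR = 0.00794). Klrk1 was also higher in KO at day 0, with 0.894 and 0.904 CPM at day 0 and 103 and 119 CPM at day 5 in WT (difference -3.15 ± 0.43 (SE), edgeR FDR = 0.0113). Pttg1 was at 24.1 and 20.8 CPM at day 0 and 578 and 742 CPM at day 5 in WT, where the days did not overlap (difference -4.07 ± 0.59 (SE), edgeR FDR = 0.0168). Tcrg-C2, a constant gene of the gamma chain of the other T-cell receptor, was at 19.99 and 25.1 CPM at day 0 and 288 and 371 CPM at day 5 in KO and at 3.04 and 3.17 CPM at day 0 and 166 and 167 CPM at day 5 in WT (difference -1.85 ± 0.30 (SE), edgeR FDR = 0.0303). Its close relatives Tcrg-C1 and Tcrg-C4 share sequence with it. Among genes with a larger response in KO, Tlr2, a receptor for bacterial lipoproteins, was at 5.49 and 7.52 CPM at day 0 and 38.3 and 54.2 CPM at day 5 in KO and at 8.59 and 12.4 CPM at day 0 and 6.70 and 7.47 CPM at day 5 in WT (difference 3.42 ± 0.41 (SE), edgeR FDR = 0.00794). Pdcd1 was not called in this test (difference 2.84 ± 0.50 (SE), edgeR FDR = 0.0548), with 5.01 and 9.04 CPM at day 0 and 8.29 and 3.86 CPM at day 5 in WT.

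**Figure D5:**
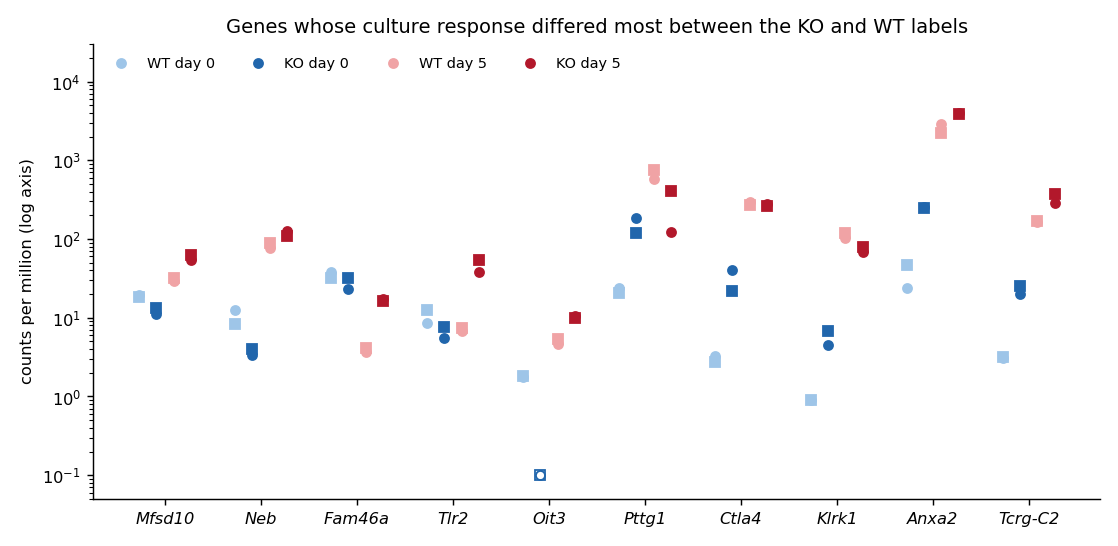
Level in CPM (log axis) of the 10 genes with the largest called difference in culture response, in all 8 libraries, pale symbols for WT and dark symbols for KO, blue for day 0 and red for day 5, circles for replicate 1 and squares for replicate 2; open symbols are values under 0.1 CPM drawn at 0.1. For Ctla4, Klrk1, Anxa2 and Tcrg-C2 the groups are furthest apart at day 0, and for Tlr2 they are furthest apart at day 5.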

How the data were processed

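Total RNA was sequenced (50-base reads) from sorted splenic CD8+ T cells. Per the labels and the submitters' processing notes, the authors aligned reads with HISAT2 2.1.0 to mm10 (GRCm38), counted them per gene with HTSeq 0.11.1 and deposited raw counts per gene symbol. The strand setting is not given in the sources used here. Summary lines were dropped, and genes held 21.2% to 24.5% of records per library, records without a feature 27.5% to 33.7% and those of no unique place 31.8% to 37.4%.

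Counts of all 8 libraries were fitted with group means in edgeR 4.0.16 (R 4.3.3), using the TMM method, filterByExpr with a minimum count of 10, and the quasi-likelihood test. All 8 share 1 estimate of the spread, and the common coefficient of biological variation was 15.0%. Values marked SE were back-calculated as the absolute log2 fold change divided by the square root of the test's F statistic. Gene counts ranged from 4170126 to 11117971 per library. Bounds used a floor of 3 counts per library and cover counting error only. Positions, exon lengths and overlaps came from GENCODE M21 (46970 symbols matched), promoters from RefSeq GRCm38.p6. Some listed genes are not reported here, although list counts and medians include them.

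Members and gene lists were chosen with earlier results of these data known. Named genes were Satb1, the 12 largest called changes in each direction with 10 CPM or more, no overlap and an assigned name, the members of the lists, the 5 largest interaction values each way, the 10 highest counts per exon length at each day, and, for small change, 5 called genes over 200 CPM and the 10 most counted genes not called. Alternatives were DESeq2 1.42.0, its size factors, library totals, other filters, the newer edgeR form, a 2-fold threshold, an offset for GC content and length, thinning, a replicate block, the KO libraries alone and leaving out each library.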

Additional observations from a re-analysis of the deposited data

Results flagged for a closer look

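The response to culture differed between the libraries labelled KO and those labelled WT for the 10 genes given here, each by edgeR's test of the genotype by day interaction with its FDR. The values are differences of log2 fold changes (KO minus WT). The difference was below 0, with a lower log2 fold change in KO than in WT, for Pttg1 (-4.07 ± 0.59 (SE), edgeR FDR = 0.0168), Ctla4 (-3.47 ± 0.38 (SE), edgeR FDR = 0.00794), Klrk1 (-3.15 ± 0.43 (SE), edgeR FDR = 0.0113), Anxa2 (-2.21 ± 0.30 (SE), edgeR FDR = 0.0113) and Tcrg-C2 (-1.85 ± 0.30 (SE), edgeR FDR = 0.0303). It was above 0 for Mfsd10 (1.57 ± 0.27 (SE), edgeR FDR = 0.0449), Neb (2.02 ± 0.32 (SE), edgeR FDR = 0.0269) and Oit3 (5.58 ± 0.86 (SE), edgeR FDR = 0.0269), with a larger increase in KO. It was also above 0 for Tlr2 (3.42 ± 0.41 (SE), edgeR FDR = 0.00794), with log2 fold changes of 2.86 in KO and -0.56 in WT, and for Fam46a (2.46 ± 0.35 (SE), edgeR FDR = 0.0160), which decreased less in KO (-0.72) than in WT (-3.18). No value changed sign under 17 alternatives. The call was kept under 15 of them for Ctla4 and Tlr2, 14 for Pttg1, Klrk1 and Anxa2, 12 for Fam46a, 9 for Neb, Oit3 and Tcrg-C2, and 7 for Mfsd10, and all 10 calls were lost without WT day 0 replicate 1.

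Anxa2, which encodes annexin A2, stood at 252 and 249.8 CPM at day 0 and 4016 and 3891 CPM at day 5 in KO and 23.97 and 46.1 CPM at day 0 and 2862 and 2216 CPM at day 5 in WT. Oit3 was at 0.0858 and 0 CPM at day 0 and 10.5 and 10.04 CPM at day 5 in KO and 1.79 and 1.81 CPM at day 0 and 4.59 and 5.30 CPM at day 5 in WT, so that its value rests on 1 count at day 0 in KO. For its increase in KO only a bound of at least 18.6-fold holds, and the size and SE of its difference are uncertain. That difference ranged from 4.98 to 7.28 under the alternatives. Neb, the gene of nebulin, was at 3.35 and 4.04 CPM at day 0 and 125 and 108 CPM at day 5 in KO and 12.5 and 8.37 CPM at day 0 and 78.0 and 89.6 CPM at day 5 in WT. Fam46a fell in both, to 17.1 and 16.3 CPM in KO and 3.70 and 4.10 CPM in WT at day 5. The part that the day 0 levels of Satb1, which go against the label, have in these values was not tested.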

How the results depend on the processing

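With alternatives, the number of genes called in the libraries labelled KO stayed between 4669 and 6691, except against a 2-fold change, where 2168 passed, 1450 higher and 718 lower. Leaving out 1 library at a time gave 4669 to 6510 called, 2639 to 3490 higher and 2028 to 3093 lower. DESeq2 called 5334. Of 480 named genes that were called, 450 kept call and direction with DESeq2, 457 with library totals, 442 with the correction for GC share and length of exons and 287 against a 2-fold change. Under that correction 40 of 628 named genes turned sign, 31 of them not called with or without it. The other 9, called with or without it, were Cd2 (-0.13), Cd3d (-0.36), Ctsw (-0.38), Gpx1 (-0.011), Rpl4 (-0.083), Rps9 (-0.098), Slc38a1 (0.0026), Tmsb10 (-0.45) and Ubb (-0.48). The cause was not tested. With the replicate number as a block 6291 genes were called, and the interaction had 29, 16 of them lower. Deviations of same-numbered libraries correlated at 0.23 in KO and 0.12 in WT, but with 2 numbers and no label that ties them they share only a number.

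The interaction, 20 genes, had 139 with DESeq2 (86 higher, 53 lower), 154 without a filter (82 and 72), 13 with that correction (6 higher) and 15 when thinned to equal totals (6 higher). Leaving out 1 library gave 0 to 41, 0 to 19 higher and 0 to 22 lower. Without WT day 5 replicate 2, 2 were higher. With 2 libraries a group, genes under about 0.57 CPM (3 counts) give bounds only.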

Other observations

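Genes of MHC class II antigen presentation, named after their values were seen, did not move together in the libraries labelled KO. H2-Ab1, the beta chain of I-A, was at 0.257 and 0 CPM at day 0 and 144 and 186 CPM at day 5, an increase of at least 299-fold (edgeR FDR = 6.11e-10). H2-Aa, its partner chain, was at 1.63 and 4.77 CPM at day 0 and 0.184 and 0 CPM at day 5, and Cd74, the invariant chain, at 19.7 and 15.6 CPM at day 0 and 7.54 and 3.79 CPM at day 5, both called lower (edgeR FDR = 0.00237 and 0.00114). Ciita, the regulator of the class, was at 0.172 and 0.367 CPM at day 0 and 2.21 and 1.70 CPM at day 5 (edgeR FDR = 0.0136). In the WT libraries H2-Ab1 was at 1.25 and 0.452 CPM at day 0 and 149.6 and 133 CPM at day 5 and H2-Aa at 2.15 and 2.04 CPM at day 0 and 0.176 and 0.241 CPM at day 5. Of 15 myeloid and dendritic cell markers 4 were tested, 2 were called lower and 1, Cd68, higher, at 2.23 and 5.14 CPM at day 0 and 68.4 and 46.4 CPM at day 5, and Lyz2, Adgre1, Cd14 and Fcgr1 were at 0 in both day 5 libraries. Their part in the level of H2-Ab1 was not tested.

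Other large increases outside the gene lists, also named after their values were seen, were those of Nupr1, a stress-induced chromatin protein gene, at 0 and 0 CPM at day 0 and 16.4 and 13.8 CPM at day 5, and Gas2l3, a cytoskeletal linker gene, at 0 and 0.184 CPM at day 0 and 54.3 and 66.6 CPM at day 5. Neither had more than 1 count in a day 0 library.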
